A study of Saccharomyces cerevisiae with 21 samples.

Results

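A group of 7 strongly transcribed protein genes of budding yeast was followed strand by strand for the ribonucleotides embedded in their DNA: CDC19, PMA1, TDH3, ENO2, PDC1, ADH1 and FAS2. The genes were given by name and by their borders, and all 7 are described here. They cover 14976 bp of the 12045878 bp of nuclear DNA in the deposited table. All libraries came from strain BY4742, a haploid laboratory strain of mating type alpha. The table holds 17 ribose-seq libraries: 6 of the wild type (WT), 5 of rnh203-K46W, 3 of rnh201-G42S and 3 of rnh201-null. The first of these mutants carries a changed residue in Rnh203, a subunit of RNase H2, the second a changed residue in the catalytic subunit Rnh201, and the third lacks Rnh201. Both changed residues correspond to mutations of the human disease Aicardi-Goutières syndrome, and per the design text they impair action on single ribonucleotides while leaving cleavage of long hybrids. The labels do not say whether the libraries of a genotype came from separate cultures, so p-values measure the spread between libraries, which may be technical.

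DNA polymerases occasionally insert a ribonucleotide in place of a deoxyribonucleotide, and RNase H2 makes the first cut in removing it. Transcription opens the DNA and leaves RNA paired for a time with the template strand, which makes strongly transcribed genes a natural place to ask whether the coding and template strands differ in embedded ribonucleotides. Here "sense" is the strand with the sequence of the messenger RNA, and "antisense" is the template strand.

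The genes fall into 3 roles. Most encode enzymes of glycolysis and alcoholic fermentation. In pathway order, TDH3 encodes a glyceraldehyde-3-phosphate dehydrogenase, ENO2 an enolase, CDC19 the main pyruvate kinase, PDC1 the main pyruvate decarboxylase and ADH1 the main alcohol dehydrogenase of fermentation. PMA1 encodes the proton pump of the plasma membrane, and FAS2 the alpha subunit of fatty acid synthase. The borders used were I:71786-73288 for CDC19 on the plus strand, VII:479910-482666 for PMA1 on the minus strand, VII:882812-883810 for TDH3 on the minus strand, VIII:451327-452640 for ENO2 on the plus strand, XII:232390-234081 for PDC1 on the minus strand, XV:159548-160594 for ADH1 on the minus strand and XVI:108652-114315 for FAS2 on the plus strand. These are the borders of the R64 annotation, whereas the table is on the sacCer2 build. The shift between the builds was not corrected, and leaving out 100 bp at each gene end was tried as an alternative.

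The value deposited for a position and strand is an enrichment factor, a ratio of ribonucleotide reads to DNA depth. Levels below are summed enrichment factors per base of a strand, scaled so that the nuclear mean of each library is 1. Nuclear reads recovered from these values ranged from 771 to 4069541 per library. Only 8 libraries had at least 100000 and are called deep here: rnh203-K46W 3, 4 and 5, rnh201-G42S 1, 2 and 3, and rnh201-null 2 and 3. In RNH201 itself, rnh201-null 2 had 16 reads where 163 were expected from length, and rnh201-null 3 had 5 where 147 were expected. The rnh201-G42S libraries had 120, 151 and 475 reads there, all above expectation.

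The libraries stood apart in a way that genotype does not give. By their mitochondrial profiles they were divided into 2 sets, each of which holds libraries of several genotypes. Among deep libraries, set A holds rnh203-K46W 4, rnh201-G42S 1 and 3 and rnh201-null 2, and set B holds rnh203-K46W 3 and 5, rnh201-G42S 2 and rnh201-null 3. Over 1-kb nuclear windows, the strand ratios of deep libraries had a mean Spearman correlation of 0.396 over the 12 pairs within a set and 0.171 over the 16 pairs between sets. What the sets are is not given in the labels. The design text names several restriction enzyme sets without tying them to libraries, and their part in the results was not tested. One more library stood apart in these genes: rnh201-G42S 1 had 371 reads over the 7 genes, 0.311 times the number expected from length (95% Poisson interval 0.280 to 0.344), while the other deep libraries had 0.865 to 1.52 times. Such intervals cover counting error only.

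**Figure D1:**
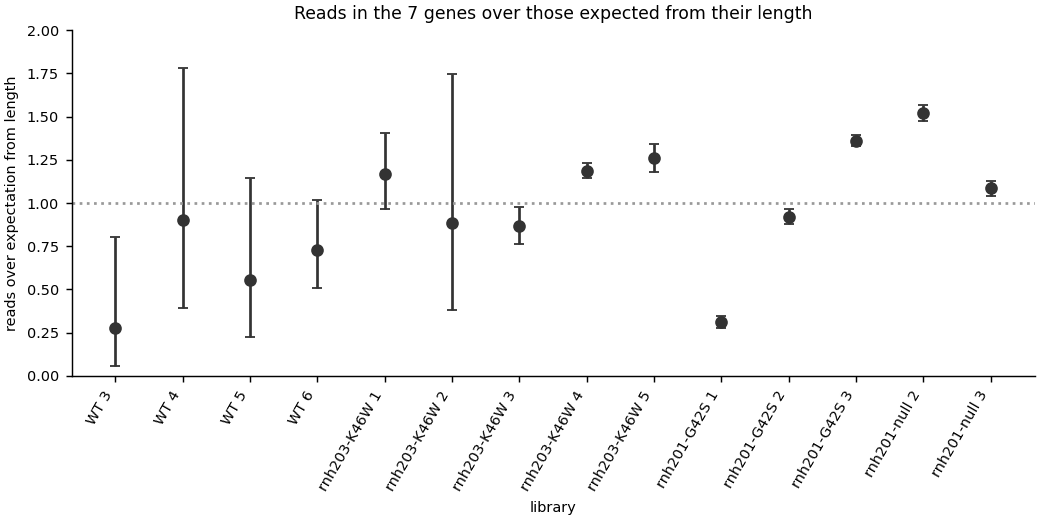
Reads over the 7 genes divided by the reads expected from their length, for the 14 libraries with at least 5 expected reads (bars, 95% Poisson interval of the count). rnh201-G42S 1 sits at 0.311, and the other deep libraries lie between 0.865 and 1.52.

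The sense strand was not consistently richer or poorer in ribonucleotides than the template strand in these genes. Of 56 values (7 genes in 8 deep libraries), the log2 ratio of sense to antisense was above 0 in 29, with a median of 0.02. None of the 7 genes passed the limma test of sense against antisense in any genotype (Benjamini-Hochberg adjusted p under 0.05), and none had an unadjusted p under 0.05. Among all genes and 1-kb windows tested the share called was 10.8% in rnh201-G42S, 0% in rnh201-null and 0% in rnh203-K46W. Features at an unadjusted p under 0.05 numbered 3417, 1012 and 835 of 11483 in the same order. No gene had the same sign in all 8 libraries, against 9.32% of all features.

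CDC19 and FAS2 each had one sign in 7 of 8 deep libraries, in opposite directions. The share of all features with one sign in 7 of 8 was not computed, so this is a description only. The CDC19 sense level was 0.514, 0.689 and 0.865 in rnh203-K46W 3, 4 and 5, against antisense levels of 0.419, 0.659 and 0.391. In rnh201-null 2 and 3 the sense levels were 1.74 and 3.42 and the antisense levels 0.874 and 1.051. In CDC19 the sense strand was the higher one in all deep libraries but rnh201-G42S 1, where the sense strand held 1 read and the antisense strand 29. In rnh203-K46W 3 the CDC19 sense strand held 12 reads and the antisense strand 10. The mean log2 ratio was 1.27 ± 0.72 (SE, n = 2) in rnh201-null, with a limma adjusted p of 0.59. Each SE here and below is limma's moderated one, from a spread shared by the libraries of all genotypes in the fit. The n gives only the libraries averaged, and the SD of these 2 CDC19 ratios alone was 0.49. In rnh201-G42S it was -0.32 ± 0.59 (SE, n = 3), with values of -2.14, 1.14 and 0.04 in libraries 1, 2 and 3.

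TDH3 changed sign between libraries of one genotype. Its sense levels in rnh201-G42S 1, 2 and 3 were 1.41, 0.566 and 3.15, and its antisense levels 0.374, 1.48 and 1.56. In rnh201-null 2 and 3 the sense levels were 3.37 and 0.435, while the antisense levels were 1.504 and 1.451. The log2 ratio was therefore 1.68, 0.97 and 1.11 in the 3 set A libraries of these genotypes, and -1.25 and -1.54 in the 2 set B libraries. In rnh203-K46W the ratio lay between 0.22 and 0.31 in all 3 deep libraries, of either set. In rnh203-K46W 3 it rests on 12 sense and 9 antisense reads.

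**Figure D2:**
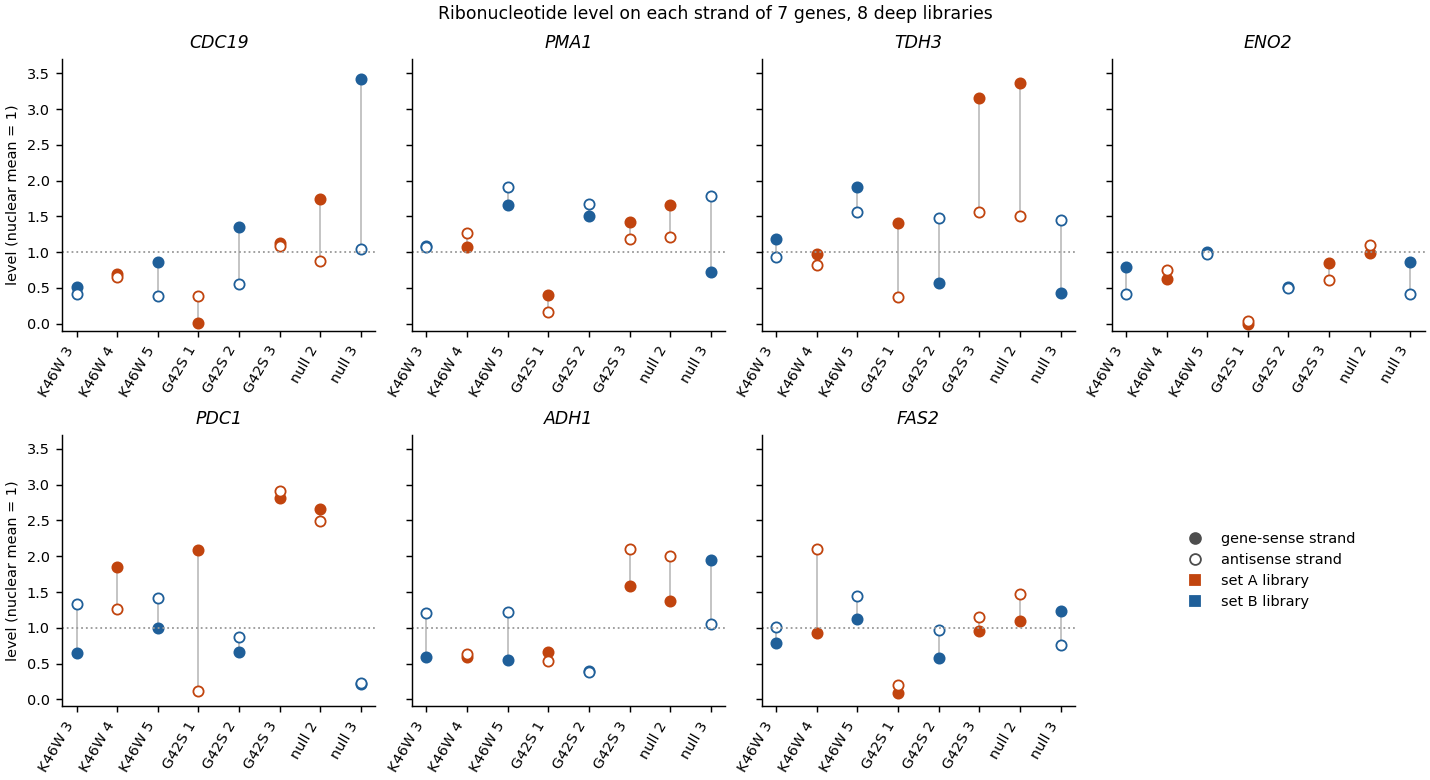
Level on the sense strand (filled) and the antisense strand (open) of each gene in the 8 deep libraries, on a linear axis scaled to a nuclear mean of 1 (dotted line); red libraries are set A and blue libraries set B. The TDH3 sense level is 3.15 and 3.37 in rnh201-G42S 3 and rnh201-null 2 and 0.566 and 0.435 in rnh201-G42S 2 and rnh201-null 3.

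PDC1 varied widely on both strands, from 0.217 to 2.81 on the sense strand and from 0.116 to 2.91 on the antisense strand, and on the sense strand its levels split by set. The sense level was 1.85, 2.08, 2.81 and 2.67 in the set A libraries rnh203-K46W 4, rnh201-G42S 1, rnh201-G42S 3 and rnh201-null 2. It was 0.648, 0.993, 0.658 and 0.217 in the set B libraries rnh203-K46W 3, rnh203-K46W 5, rnh201-G42S 2 and rnh201-null 3. The 2 sets did not overlap on this strand, whereas on the antisense strand they did. Every other one of the 14 gene strands had overlapping sets. The share of all strands whose sets do not overlap was not computed, so the split is a description only. In a comparison added after seeing the data, set A exceeded set B on the PDC1 sense strand by a log2 difference of 1.89 ± 0.48 (SE, n = 4 and 4), with a limma adjusted p of 0.0504. None of the 14 gene strands passed in that comparison, in which 3.71% of all strands were called. Without rnh201-G42S 1, 2 gene strands passed, the sense and antisense strands of PDC1, with 13.6% of all strands called.

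For the strand ratio, TDH3 had the largest difference between the sets among the genes, 1.63 ± 0.71 (SE, n = 4 and 4) on the log2 scale, with a limma adjusted p of 0.19. No gene passed there, where 3.44% of features were called.

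Averaged over the 3 genotypes, a comparison added after seeing the data, the log2 strand ratios of the 7 genes ran from -0.33 ± 0.30 for FAS2 to 0.46 ± 0.37 for CDC19 (SE, 8 libraries), and no gene passed where 13.2% of features did.

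PMA1, ENO2 and ADH1 had ratios of mixed sign. The PMA1 log2 ratio was above 0 in 4 of 8 deep libraries and ran from -1.20 to 0.92. That of ENO2 was above 0 in 5 and ran from -0.45 to 0.91. ADH1 was above 0 in 3 and ran from -1.03 to 0.82. The ratio of ENO2 in rnh201-G42S 1 rests on 0 sense and 2 antisense reads, and that in rnh203-K46W 3 on 11 and 6. FAS2, the longest gene, was above 0 only in rnh201-null 3, at 0.65, and the other 7 values ran from -1.11 to -0.24. Its mean over the 8 libraries, -0.38, was the farthest from 0 of the 7 genes, beside 0.36 for CDC19.

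In the DNA around the genes the strand given by the gene's orientation was usually the richer one. The 5-kb flanks on both sides had a log2 ratio above 0 in 47 of 56 values, with a median of 0.48. The 56 values are the same 7 regions in 8 libraries and are not independent. No such share was computed for the flanks of other genes. In rnh201-G42S 2 and 3 and rnh201-null 2 and 3 the flanks of all 7 genes were above 0, with medians of 0.70, 1.07, 0.66 and 1.004. In rnh203-K46W 3, 4 and 5 the medians were 0.19, 0.31 and 0.05. The flanks hold neighbouring genes on either strand, such as HIP1 and PDX1 beside TDH3 and SSO1 and USV1 beside FAS2, so the orientation is that of the member gene only.

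Set against their flanks, FAS2 and ADH1 had a lower strand ratio in every deep library. The FAS2 difference was -0.95, -1.41 and -0.94 in rnh203-K46W 3, 4 and 5. It was -1.15, -1.35 and -1.31 in rnh201-G42S 1, 2 and 3, and -0.83 and -0.39 in rnh201-null 2 and 3. The ADH1 difference was -0.84, -0.31 and -0.86 in rnh203-K46W, -1.13, -1.53 and -1.26 in rnh201-G42S, and -1.58 and -0.32 in rnh201-null, in the same order. Both genes therefore lay below their flanks in all 8 libraries, of both sets. Some of these ratios rest on few reads: ADH1 held 6 sense and 12 antisense reads in rnh203-K46W 3, and 13 and 26 in rnh203-K46W 5. One sign in all 8 libraries was seen for 8.17% of all features, so 2 of 7 genes is a description and not a test. Apart from the 7 genes, those features are 1-kb windows, so the share is not matched in length to FAS2, at 5664 bp.

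The limma test of gene against flank ratio called no member. In rnh201-G42S the differences were -1.496 ± 0.531 for ENO2, -1.31 ± 0.53 for ADH1 and -1.27 ± 0.51 for FAS2 (SE, n = 3), with limma adjusted p of 0.096, 0.14 and 0.13. In that genotype 5.98% of features were called, against 0% in rnh201-null and 0% in rnh203-K46W. Unadjusted p under 0.05 was found for 2947, 678 and 852 of 11483 features in rnh201-G42S, rnh201-null and rnh203-K46W. Of the 7 genes, 3 had an unadjusted p under 0.05 in rnh201-G42S, 0 in rnh201-null and 1, FAS2, in rnh203-K46W. The median over the 7 genes was -0.94 in rnh201-G42S, -0.61 in rnh201-null and 0.09 in rnh203-K46W. Over all features it was 0.00, -0.01 and 0.01, but windows have no gene orientation and were taken as plus over minus strand. Those medians are therefore no baseline for the genes. The mean of the 3 genotypes, added after seeing the data, was -0.99 ± 0.32 for FAS2 and -0.97 ± 0.33 for ADH1 (SE, 8 libraries), with limma adjusted p of 0.068 and 0.080 and 7.19% of features called. With the set as a covariate both passed, at limma adjusted p of 0.033 and 0.043, as did 17.7% of features.

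**Figure D3:**
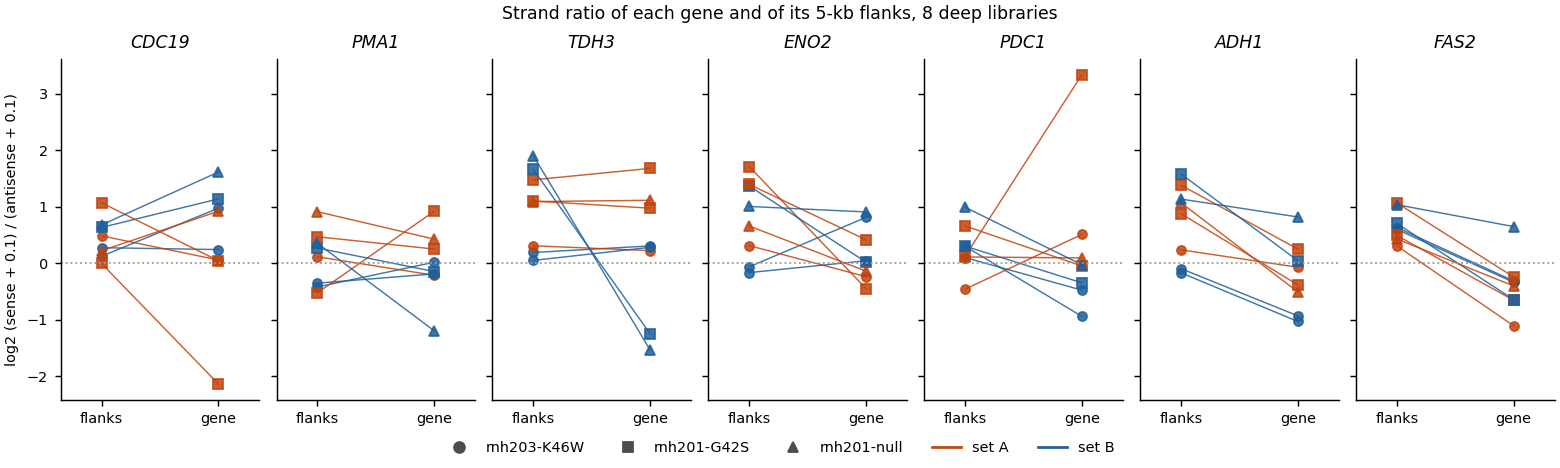
Log2 ratio of sense to antisense level (each plus 0.1) in the 5-kb flanks and in the gene, joined for each of the 8 deep libraries; marker shape gives the genotype and colour the set. All 8 lines fall from flank to gene in ADH1 and FAS2, and in TDH3 the lines of rnh201-G42S 2 and rnh201-null 3 fall by 2.91 and 3.44.

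The TDH3 difference from its flanks was carried by a pair of libraries. It was -2.91 in rnh201-G42S 2 and -3.44 in rnh201-null 3, and between -0.13 and 0.23 in the other 6. The log2 ratio of the gene itself was -1.25 and -1.54 in this pair. In the other deep libraries of these genotypes it ran from 0.97 to 1.68. The flank ratio was 1.66 and 1.902 in the pair, and ran from 1.09 to 1.47 in those others. The gene's own ratio therefore differed more than that of its flanks. The pair also had the highest sense level upstream of TDH3. A 250-bp bin starting 1500 bp before the gene reached a level of 26.5 in rnh201-G42S 2 and 56.9 in rnh201-null 3. The same bin was the highest upstream one in rnh201-G42S 3 and rnh201-null 2, at 8.19 and 10.8. In rnh201-G42S 1 the next bin, starting 1250 bp before the gene, was the highest, at 15.99, and the difference from the flanks was 0.20. In rnh203-K46W the highest upstream bins were elsewhere and reached 2.99 to 4.44.

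The 2 strands did not contribute alike to the lower ratios in every genotype. In rnh201-G42S the sense strand lay below that of the flanks by log2 differences of -2.06 ± 0.60 for ENO2, -1.53 ± 0.45 for FAS2 and -1.07 ± 0.40 for ADH1 (SE, n = 3), with limma adjusted p of 0.070, 0.071 and 0.12. The ENO2 value includes rnh201-G42S 1, whose sense strand held 0 reads. The other 2 libraries had differences of -1.19 and -0.63. On the antisense strand the differences were -0.56 ± 0.53 for ENO2, -0.26 ± 0.48 for FAS2 and 0.24 ± 0.41 for ADH1. For FAS2 in rnh203-K46W the sense difference was -0.34 ± 0.45 and the antisense difference 0.76 ± 0.48 (SE, n = 3). In rnh203-K46W 4 and rnh201-null 2 the FAS2 sense level was near that of its flanks, at 0.06 and 0.04, and the antisense level above it, at 1.47 and 0.87. For ADH1 in rnh201-null the sense difference was -0.34 ± 0.50 and the antisense difference 0.61 ± 0.50 (SE, n = 2).

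None of the 14 gene strands passed against its flanks in any genotype, and 0% of the 22939 strands tested did so in each. Unadjusted p under 0.05 was found for 6384, 2530 and 2064 strands in rnh201-G42S, rnh201-null and rnh203-K46W. The median difference over the 14 gene strands in rnh201-G42S was -0.27, against -0.44 over all strands tested. A single window lay below the wider flanks more often than above, so the sign of a level difference is read against that median. With the set as a covariate, added after seeing the data, ENO2 and FAS2 passed on the sense strand in rnh201-G42S, and 16.8% of all strands did.

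Over the mean of the 3 genotypes, also added, the sense strand lay below the flanks by -0.74 ± 0.25 for ADH1 and -0.75 ± 0.28 for FAS2 (SE, 8 libraries), with limma adjusted p of 0.065 and 0.087. No gene strand passed there, where 13.6% of all strands did. With the set as a covariate the ADH1 sense strand passed, at a limma adjusted p of 0.039, as did 25.3% of all strands.

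Ribonucleotides did not cover the genes evenly, and some stretches with none were shared by all 4 deep libraries of a set, across the 3 genotypes. In CDC19, no set A library had a ribonucleotide on the sense strand between bases 1 and 369 of the gene, where 137.9 reads would be expected at the nuclear mean. The set B libraries had 194 reads there, with 3 to 139 in each. In PDC1 the sense strand from base 17 to 870 was empty in all 4 set B libraries, with 147 reads expected, and held 666 reads in set A, with 84 to 243 in each. The stretches were found as the longest empty ones, so these counts describe them and are no test.

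Stretches of this kind were also present in the other genes, and on either strand. The first 219 bases of the TDH3 sense strand were empty in set B, with 37.8 reads expected, and held 507 reads in set A. Bases 229 to 646 of the FAS2 sense strand were empty in set B, with 72.2 expected, and held 197 reads in set A. In ENO2 the first 212 bases of the sense strand held no read in any deep library, with 79.3 expected in set A and 36.6 in set B. In PMA1, bases 2483 to 2757 of the sense strand were empty in set B and held 186 reads in set A. Bases 288 to 481 of the ADH1 sense strand were empty in set B and held 128 reads in set A. On the antisense strand, bases 2007 to 2337 of PMA1 and 814 to 1047 of ADH1 were empty in set B. Set A held 146 and 42 reads there, and both stretches are longer than the sense ones given. In FAS2, antisense bases 246 to 381 were empty in set A and held 159 reads in set B.

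**Figure D4:**
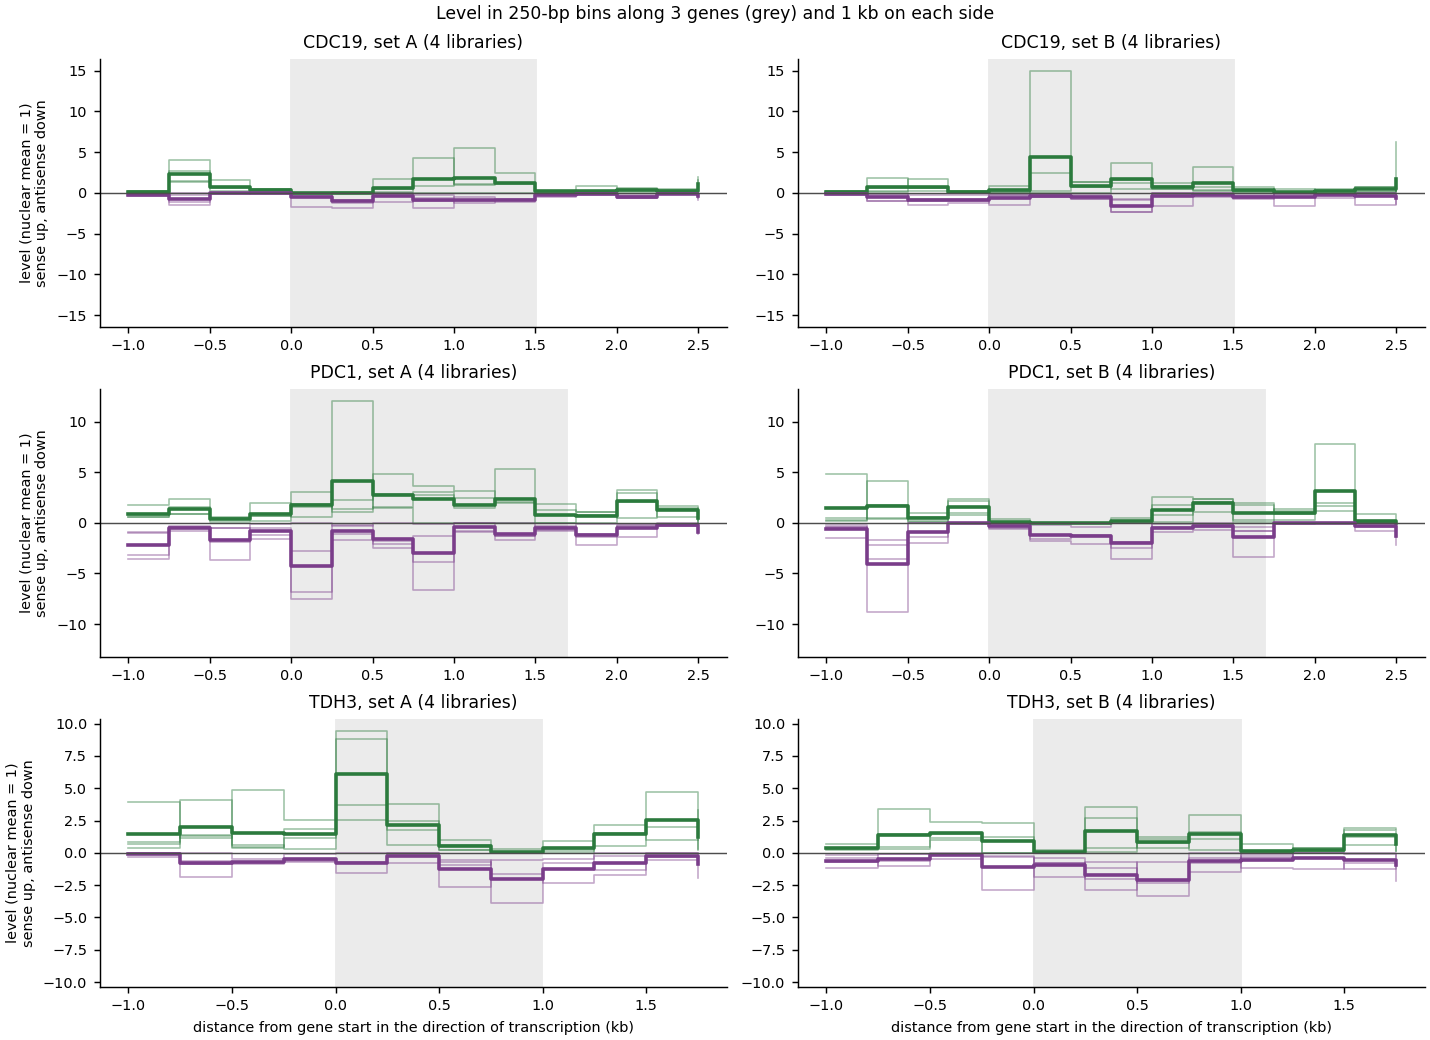
Level in 250-bp bins along CDC19, PDC1 and TDH3 (grey) and 1 kb on each side, sense upward and antisense downward, with thin lines for single deep libraries and thick lines for the mean of the 4 libraries of a set. The start of CDC19 is empty on the sense strand in set A, and bases 17 to 870 of the PDC1 sense strand are empty in set B.

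At single bases, most ribonucleotide positions were seen in 1 deep library. Between 24.0% and 39.9% of the bases of a gene strand had a value in at least 1 deep library, the lowest share on the ENO2 antisense strand and the highest on the PDC1 sense strand. Of the positions with a value, the share seen in 2 or more libraries ran from 19.9% on the ENO2 antisense strand to 44.3% on the TDH3 sense strand. No position had a value in all 8. Positions seen in 4 or more libraries numbered 0 to 21 per strand, with the most on the antisense strand of PMA1.

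The highest single position of all was on the FAS2 antisense strand at XVI:113836, 5185 bases into the gene. Its enrichment factor, on the scale where the nuclear mean is 1, was 1596 ± 2092 (SD, n = 3) in rnh203-K46W. It had values in 2 of the 3 libraries and a maximum of 3964, in rnh203-K46W 4. It held a mean of 14.5% of the strand's sum. As an alternative, the highest position was left out on each gene strand, but not in the flanks. The FAS2 ratio difference from its flanks in rnh203-K46W then moved from -1.10 to -0.94.

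Other positions led in more than 1 genotype. The PMA1 antisense position VII:481909 was the highest in both rnh201-G42S, with a mean of 146 ± 238 (SD, n = 3), and rnh201-null, with 83.2 ± 88.2 (SD, n = 2). On the TDH3 antisense strand VII:883516 led in the same 2 genotypes, with 1 library in each: 254 and 248. The ENO2 sense position VIII:452631, 1305 bases into the gene, led in rnh203-K46W and rnh201-G42S, also with 1 library in each. In CDC19, PDC1 and ADH1 no position led a strand in more than 1 genotype.

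Between the 3 mutants no gene passed the test for its strand ratio, and no gene strand for its level, which does not show that they were equal. In both comparisons limma called 0% of features in each pair of genotypes. For the ratio, 333, 1239 and 363 of 11483 features had an unadjusted p under 0.05 for rnh201-G42S against rnh201-null, rnh203-K46W against rnh201-G42S and rnh203-K46W against rnh201-null, and none was a member. For the level, 791, 2082 and 660 of 22939 strands did so in the same order, with 1, 0 and 0 gene strands among them. The 1 was the CDC19 sense strand, at -2.13 ± 0.95 (SE, n = 3 and 2) for rnh201-G42S minus rnh201-null and a limma adjusted p of 0.96. The spread within a genotype was wide: the TDH3 sense level ran from 0.566 to 3.15 in rnh201-G42S and from 0.435 to 3.37 in rnh201-null.

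Wild-type libraries, where RNase H2 is intact, gave too few reads to compare strands gene by gene. Over all 6, the 7 genes held 54 reads, 21 sense and 33 antisense, where 82.5 were expected from length. The deepest, WT 6, had 35 of these, 14 sense and 21 antisense, a sense share of 40.0% (95% Wilson interval 25.6% to 56.4%). In its flanks the sense share was 66.2%. CDC19 and PMA1 held 15 and 14 reads over the 6 libraries, and PDC1 held 1 where 9.33 were expected.

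Against the wild type, with all 17 libraries, no gene passed in any mutant. The share called was 1.52% in rnh203-K46W, 0% in rnh201-G42S and 0% in rnh201-null, where 2342 and 915 of 11468 features in the last 2 had an unadjusted p under 0.05. The largest differences for rnh203-K46W were those of PDC1, 2.97 ± 1.01, and TDH3, 2.74 ± 1.17 (SE, n = 5 and 6), with limma adjusted p of 0.061 and 0.11. Without WT 6 these became 3.24 and 3.31, with limma adjusted p of 0.023 and 0.037, and 21.3% of features passed. PDC1 also passed without rnh203-K46W 2, at 3.78 with 17.9% of features called, and without rnh201-null 1, at 2.97 with 12% called. The median difference of the 7 genes was 1.97 in rnh203-K46W, 1.33 in rnh201-G42S and 0.96 in rnh201-null, beside 1.44, 1.61 and 0.84 over all features. Levels are scaled to the same nuclear mean in every library, and features without a read in a sparse library stand at the pseudocount. Besides the wild type, this holds for rnh201-null 1, with 1 read over the 7 genes and 6 genes without a read. It also holds for rnh203-K46W 2, with 8 reads and 3 genes without a read. The differences from the wild type are therefore no measure of total ribonucleotides. The 3 comparisons share the wild-type libraries.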

How the data were processed

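Ribonucleotide positions were measured by ribose-seq in 17 libraries of BY4742 yeast; 4 whole-genome sequencing samples have no column and were not analysed here. Per the design text and the submitters' processing notes, reads were trimmed (cutadapt is named), aligned to sacCer2 and filtered with Ribose-Map. The authors deposited a normalized enrichment factor, a ratio, per position and strand; its normalization is not given in the sources used here. Each value equals, up to a factor fixed per library, reads over a whole-number depth of the genotype's DNA, so read numbers were recovered (98.7% to 100% of positions within a tolerance of 0.02 per read). In libraries with enough positions on both strands, 97.9% to 100% of positions implied one depth for both, so strand ratios are nearly free of DNA depth.

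Rows were merged by chromosome, end and strand. Levels were compared as log2(level + 0.1), with limma 3.58.1 in R 4.3.3 (lmFit and eBayes with a trend), over the genes and 1-kb nuclear windows at least 5 kb from chromosome ends with a mean level of at least 0.1. A pseudocount understates changes of low levels. The fits use the 8 libraries with at least 100000 reads, except those against wild type. Adjusted p-values are Benjamini-Hochberg values over all features. In simulated data the test recovered a minority of the 4-fold strand changes put into rnh201-G42S, and none of them in the comparison with rnh201-null. A gene that does not pass may therefore still differ. All 7 genes are named, with the highest position of each strand per genotype. The genes, lists and sets were chosen with earlier results of these data known. Alternatives changed the pseudocount, filter, windows, flanks, gene ends, highest positions, weights and libraries.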

Additional observations from a re-analysis of the deposited data

Results flagged for a closer look

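In groups of 4 to 10 libraries, 6 of 28 sets of values had a library far from the others by Dixon's test, which flags about 1 group in 20 by chance; 5 of these 6 are wild-type values that rest on a handful of reads. The CDC19 level was 7.10 in WT 1, a library with 1 read over all 7 genes. ENO2 had a level of 1.16 and a log2 strand ratio of 4.60 in WT 4, in a gene with 2 reads over the 6 wild-type libraries. PDC1 had a level of 0.199 and a log2 strand ratio of -2.32 in WT 6, from the only wild-type read in that gene. The PMA1 log2 strand ratio was -3.91 in rnh203-K46W 2, a library with 8 reads over the 7 genes and not one of the deep libraries.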

How the results depend on the processing

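No gene or gene strand passed in any of 23 comparisons, and 474 of 508 recomputed counts stayed at 0; of 4725 recomputed gene values, 59 moved past the threshold and 0 did so with the opposite sign. For the ratio against the flanks in rnh201-G42S, 1 gene passed with 2-kb windows (ENO2), where 602 features were called in all. With library quality weights 2 passed (ADH1 and FAS2), where 1908 features were called in all. For the level against the flanks in rnh201-G42S, 1 gene strand passed with a pseudocount of 1 (1944 strands called in all). With 2-kb windows 2 passed (539 called in all), and 2 with the set as a covariate (3846). Set B alone leaves 1 rnh201-G42S and 1 rnh201-null library, so counts of genes passing with it are not given. The spread in those fits is taken from 2 rnh203-K46W libraries. Against wild type it is also taken from WT 2, 4 and 5, which held 771, 7123 and 10110 nuclear reads. Against wild type, rnh203-K46W gained 1 gene with a pseudocount of 0.01 (1097 features called in all). It gained 4 without the highest position (5461) and 4 with weights (4849). When a library was left out it gained 0 to 2. These were PDC1 and TDH3 without WT 6, and PDC1 without rnh203-K46W 2 or without rnh201-null 1. For rnh201-G42S the gain was 5 without the highest position (8037 features called in all) and 2 with weights (2982). The main fit tested 11468 features. Between the sets, 1 gene strand passed without the highest position (865 strands called in all). With 100 bp left out at each gene end 1 passed (853), and 0 to 2 when a library was left out. For the mean of the 3 genotypes against the flanks, the ratio gained 2 genes with 2-kb windows, 2 with weights, 2 with the set as a covariate (ADH1 and FAS2 each time) and 1 with 2-kb flanks, and the level gained 1 strand (ADH1 sense) under each of 5 settings: highest position left out, recovered reads, 2-kb windows, a pseudocount of 1 and the set as a covariate. Where a gene or gene strand passed, 3.72% to 70.5% of all features did. The cause was not tested. No paired analysis was possible because replicates were numbered in accession order. Depth limits the wild type most, and 2 rnh201-null and 3 libraries of each other mutant limit the precision of every genotype mean.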
